A study of Mus musculus with 8 samples.

Results

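The subject here is the proteasome, followed through its subunits, activators, inhibitor and assembly factors in mouse ankle joint. Members were taken by name: every probe set annotated to a single gene whose symbol is Psm followed by a letter from a to g and a number. This gave 100 probe sets for 47 genes, out of 18194 genes with a probe set of their own. Of these, 45 genes had a probe set bright enough to test; Psma8 and Psmb11, the testis and thymus variants, did not. Psme2 shares its only listed probe set with Psme2b, so it has no value of its own and was not analysed here.

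Total RNA from dissected ankle joints of 5-month-old mice was hybridised to 8 single-colour Affymetrix arrays. The 2 wild-type arrays came from mice with neither modification. In a second group, 3 arrays came from mice carrying a human TNFa transgene (hTNF) with normal sphingosine kinase 1 activity. The last 3 arrays came from mice with the same hTNF transgene that were labelled sphingosine kinase 1 functional null (Sphk1 null). Both transgenic groups therefore carry the human cytokine gene, and no array holds the Sphk1 null state without it. The labels give neither the promoter and line of the transgene nor the form of the null allele, and do not say whether mice of a group came from separate litters, so p-values measure the spread between these arrays. Because the tissue is a whole joint, fewer cells of a type and less RNA per cell cannot be told apart.

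The proteasome degrades proteins tagged with ubiquitin. Its 20S core is a barrel of alpha and beta rings in which Psmb5, Psmb6 and Psmb7 cut the substrate, and the 19S regulatory particle binds the tagged protein, unfolds it with a ring of ATPases and feeds it into the barrel. In cells exposed to interferon gamma, and constitutively in many leukocytes, Psmb8, Psmb9 and Psmb10 take the places of Psmb5, Psmb6 and Psmb7 in newly built cores, and the PA28 activator of Psme1 and Psme2 can cap the barrel. This immunoproteasome is known for making peptides suited to MHC class I molecules.

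The 250 bases upstream of the annotated start are shown first, since the subunits with opposite changes below are read from different promoters. RefSeq held such a window (build GRCm38.p6) for 38 of the 45 tested members. The 6 shown are the immunoproteasome genes with Psme1, the replaced subunit Psmb6 and the 19S subunit Psmd12. All are printed 5′ to 3′ on the gene's own strand, and capitals mark matches to the GAS, ISRE, ARE or NF-kB motifs on either strand. The windows are chr17:34197945-34198194, plus strand, for Psmb8; chr17:34187331-34187580, minus strand, for Psmb9; chr8:105938393-105938642, minus strand, for Psmb10; chr14:55578244-55578493, plus strand, for Psme1; chr11:70525107-70525356, plus strand, for Psmb6; and chr11:107479278-107479527, plus strand, for Psmd12.
Psmb8: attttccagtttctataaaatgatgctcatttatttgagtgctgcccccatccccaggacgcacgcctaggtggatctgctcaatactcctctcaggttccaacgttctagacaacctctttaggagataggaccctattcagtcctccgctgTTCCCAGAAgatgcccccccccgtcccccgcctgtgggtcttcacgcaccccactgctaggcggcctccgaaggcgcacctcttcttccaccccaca
Psmb9: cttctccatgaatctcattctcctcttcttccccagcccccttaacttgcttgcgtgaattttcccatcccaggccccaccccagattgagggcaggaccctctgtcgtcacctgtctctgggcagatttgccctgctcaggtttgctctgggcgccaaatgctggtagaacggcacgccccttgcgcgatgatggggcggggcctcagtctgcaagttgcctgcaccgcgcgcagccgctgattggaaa
Psmb10: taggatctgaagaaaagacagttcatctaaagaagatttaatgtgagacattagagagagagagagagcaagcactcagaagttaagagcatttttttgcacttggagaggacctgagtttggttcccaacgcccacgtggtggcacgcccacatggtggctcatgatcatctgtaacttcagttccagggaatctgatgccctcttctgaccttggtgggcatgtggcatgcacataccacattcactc
Psme1: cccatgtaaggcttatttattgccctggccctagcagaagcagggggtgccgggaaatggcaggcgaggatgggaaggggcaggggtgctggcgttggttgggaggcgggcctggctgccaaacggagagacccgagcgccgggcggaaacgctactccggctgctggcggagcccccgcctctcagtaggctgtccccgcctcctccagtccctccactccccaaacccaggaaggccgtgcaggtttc
Psmb6: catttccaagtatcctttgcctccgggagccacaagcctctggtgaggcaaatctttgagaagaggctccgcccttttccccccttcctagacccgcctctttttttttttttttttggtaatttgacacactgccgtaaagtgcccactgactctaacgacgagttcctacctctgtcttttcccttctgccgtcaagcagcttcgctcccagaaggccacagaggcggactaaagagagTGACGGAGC
Psmd12: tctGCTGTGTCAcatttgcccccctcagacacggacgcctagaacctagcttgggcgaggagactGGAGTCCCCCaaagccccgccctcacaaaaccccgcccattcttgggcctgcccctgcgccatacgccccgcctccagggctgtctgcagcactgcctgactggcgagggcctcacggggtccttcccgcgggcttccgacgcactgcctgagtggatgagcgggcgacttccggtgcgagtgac

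The interferon-type GAS motif, searched as TTCNNNGAA on both strands, matched the Psmb8 window as TTCCCAGAA, from 97 to 89 bases before the start. It was found in 1 of the 4 windows of Psmb8, Psmb9, Psmb10 and Psme1, in 1 of the 34 other member windows (Psmg1) and in 7.02% of all 32851 promoter windows of this length. The ISRE motif, searched as 2 GAAA blocks set 2 bases apart, was in 0 of those 4 and in 3 of 34 (Psmb3, Psmd4 and Psmd9), against 2.98% of all windows. The ARE motif TGACNNNGC, the kind of element bound by the Nfe2l1 and Nfe2l2 factors, was in 0 of 4 and in 5 of 34 (Psmb5, Psmb6, Psmc6, Psmd9 and Psmd12), against 10.2% of all. Among 13 windows of members called lower in hTNF against wild type, 2 (15.4%) held it. Those are Psmb6 and Psmd12, the called falls printed above, so the printed windows do not stand for the others. In Psmb6 it reads TGACGGAGC and ends at the last base before the start. In Psmd12 it lies on the reverse strand, 247 to 239 bases before the start. The NF-kB motif was in 0 of 4 and 6 of 34, Psmd12 among them, against 7.25%. Among the same 13 windows of called falls, 3 (23.1%) held the NF-kB motif, 2 (15.4%) the ISRE motif and 0 the GAS motif. The ISRE and GAS patterns can overlap in sequence, and a match only says that these letters are present. Psmb9 shares its upstream region with Tap1, a pump that moves peptides into the endoplasmic reticulum: their starts lie 225 bases apart on chromosome 17.

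Values are log2 brightness, and levels of different probe sets were not compared with each other. Array medians ran from 6.84 to 6.89. Correlations over the 24115 probe sets bright enough to test were 0.962 to 0.985 within groups and 0.95 to 0.99 between the transgenic groups. They were 0.889 to 0.916 between wild type and hTNF, and 0.862 to 0.894 between wild type and labelled null. Sphk1 read 7.25 and 7.16 in wild type, 8.28 to 8.65 on the hTNF arrays and 9.94 to 10.22 where the label is Sphk1 null; the highest values of this transcript were thus in the arrays labelled null, and its level does not check that label. Xist, transcribed from the inactive X chromosome, read 7.45 and 7.29 on wild-type replicate 1 and hTNF replicate 2 and 11.19 to 13.16 on the other 6 arrays. Of those 6, hTNF replicate 3 and labelled null replicates 2 and 3 read 3.46 to 3.81 for the Y-linked Eif2s3y. The remaining 3 read higher: 6.91 on wild-type replicate 2, 6.60 on hTNF replicate 1 and 9.14 on labelled null replicate 1, against 8.86 and 8.75 on the arrays low in Xist. These 3 arrays are called high in Xist with raised Eif2s3y, a description by their gap to the other Xist-high arrays and not by a set threshold. The ankle held RNA of several tissues: defining markers of skeletal muscle, cartilage and bone, and synovial fibroblasts were all measured, and keratinocyte markers averaged from 6.38 to 11.41 within the hTNF group alone.

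The immunoproteasome genes rose in hTNF ankles while 16 of the other subunit and activator genes fell. A gene was called when limma's moderated test, adjusted with Benjamini-Hochberg over 24115 probe sets, gave an adjusted p under 0.05. Of the 45 tested members 5 rose (11.1%) and 16 fell (35.6%), and 24 were not called. Over all 12362 tested genes 16.5% were called higher and 19.6% lower. The share of members that rose was thus below that of all genes, and the share that fell was above it. The median member difference was -0.22, against -0.02 over all genes. With wild-type replicate 1 left out, which leaves 1 wild-type array, all 21 called members kept their sign but fewer members were called. Fewer probe sets were called over the whole table as well. With hTNF replicate 3 left out 9 members were called lower. Over all 24115 tested probe sets 2927 were then called lower, against 3952 with all arrays kept. Without the 3 arrays high in Xist with raised Eif2s3y, 5 were called higher and 17 lower.

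Psmb8 encodes the immunosubunit with chymotrypsin-like activity (LMP7). It read 10.11 and 10.69 in wild type, 11.25, 11.33 and 11.52 in hTNF, and 11.30, 11.13 and 11.30 in the labelled null. All 6 transgenic arrays were above both wild-type arrays, and the transgenic groups overlapped. The difference of hTNF from wild type was 0.97 ± 0.16 (SE; 1.95-fold, limma adjusted p = 0.00185). Psmb9, encoding LMP2, read 8.91 and 9.54 in wild type, 9.79, 9.98 and 10.04 in hTNF, and 9.99, 9.75 and 9.85 in the labelled null. Here too no transgenic array reached down to wild type. It rose by 0.71 ± 0.18 (1.64-fold, limma adjusted p = 0.0135). Without wild-type replicate 1 the Psmb9 difference was 0.40 (adjusted p = 0.124), so that call rests on that array.

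Psmb10, encoding the trypsin-like immunosubunit MECL-1, read 9.97 and 10.25 in wild type, 10.75, 11 and 11 in hTNF, and 11.05, 10.74 and 10.88 in the labelled null. The groups separated in the same way, and the rise was 0.81 ± 0.14 (1.75-fold, limma adjusted p = 0.00184). Psme1, the alpha chain of PA28, read 10.97 and 11.07 in wild type, 11.20, 11.41 and 11.42 in hTNF, and 11.41, 11.35 and 11.30 in the labelled null. Its rise was the smallest of the 5, at 0.32 ± 0.10 (1.25-fold, limma adjusted p = 0.0320). Left-out arrays showed how close Psme1 lay to the threshold: its adjusted p was 0.187 and 0.0680 without wild-type replicates 1 and 2, 0.106 and 0.110 without hTNF replicates 2 and 3, and 0.0523 without labelled null replicate 3. Psmb8 and Psmb10 were called whichever of the 8 arrays was left out.

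The wild-type arrays differed from each other in these genes. Replicate 2 exceeded replicate 1 by 0.58 for Psmb8, 0.63 for Psmb9 and 0.28 for Psmb10, whereas the median absolute difference over the 45 members was 0.09. On the same arrays the mean of 9 neutrophil and precursor markers was 7.87 in replicate 1 and 11.17 in replicate 2, and the mean of 9 proliferation markers 6.46 and 7.95. T and NK cell markers averaged 7.11 and 7.67, and B and plasma cell markers 9.21 and 10.03. Their part in the wild-type spread of the immunoproteasome genes was not tested.

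**Figure D1:**
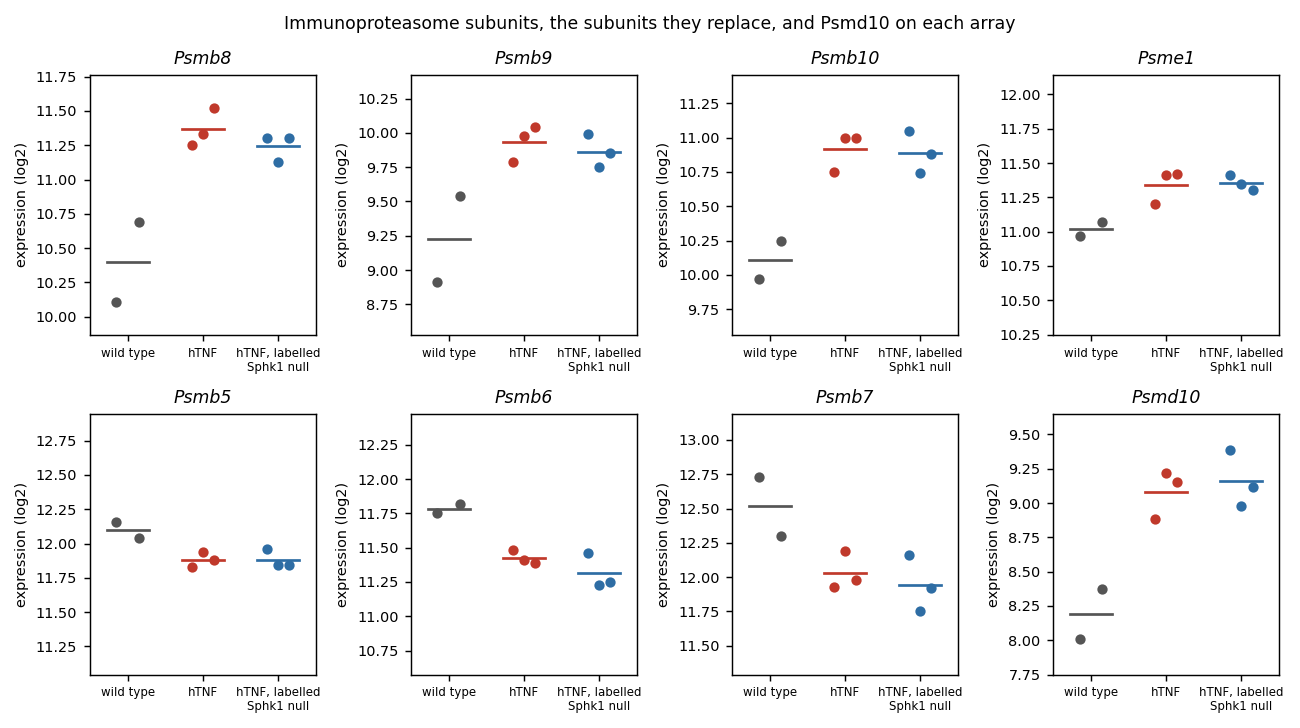
Log2 expression of the immunoproteasome genes, Psme1, the replaced catalytic subunits and Psmd10 on each array, by group (points are arrays, bars group means). The hTNF arrays of Psmb8 sit at 11.25 to 11.52, above the wild-type values of 10.11 and 10.69, while Psmb6 sits at 11.39 to 11.48 in hTNF, below 11.75 and 11.82 in wild type.

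Of the 3 replaced subunits 2 fell in hTNF. Psmb5, the chymotrypsin-like subunit of the constitutive core, read 12.16 and 12.04 in wild type, 11.83, 11.94 and 11.88 in hTNF, and 11.96, 11.84 and 11.84 in the labelled null. The groups of the first comparison did not overlap, but its difference of -0.22 ± 0.08 did not pass the test (limma adjusted p = 0.0777). Psmb6, the caspase-like subunit, read 11.75 and 11.82 in wild type, 11.48, 11.41 and 11.39 in hTNF, and 11.46, 11.23 and 11.25 in the labelled null. All transgenic arrays lay below wild type. Psmb6 fell by 0.36 ± 0.10 (limma adjusted p = 0.0182). That call was lost without wild-type replicate 1 (adjusted p = 0.0647), wild-type replicate 2 (0.103), hTNF replicate 2 (0.0565) or hTNF replicate 3 (0.0629).

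Psmb7, the constitutive trypsin-like subunit, read 12.73 and 12.30 in wild type, 11.93, 12.19 and 11.98 in hTNF, and 12.16, 11.75 and 11.92 in the labelled null. Wild-type replicate 1 stood highest, and the groups did not overlap. Psmb7 fell by 0.48 ± 0.16 (limma adjusted p = 0.0399). Without wild-type replicate 1 the difference was -0.27 (adjusted p = 0.331), and the call was also lost without hTNF replicate 1 (0.0954), hTNF replicate 3 (0.105) or labelled null replicate 3 (0.0623).

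Each immunosubunit was then set against the subunit it replaces on the same array. A log2 ratio of brightness has no meaning as a proportion of molecules, so only its change between groups was read. Psmb8 minus Psmb5 was -2.05 and -1.35 in wild type, -0.58, -0.61 and -0.36 in hTNF, and -0.66, -0.71 and -0.54 in the labelled null. The hTNF group exceeded wild type by 1.18. Psmb9 minus Psmb6 was -2.84 and -2.28 in wild type, -1.69, -1.43 and -1.35 in hTNF, and -1.47, -1.48 and -1.40 in the labelled null. That is a change of 1.07 between wild type and hTNF. Psmb10 minus Psmb7 was -2.76 and -2.05 in wild type, -1.18, -1.19 and -0.98 in hTNF, and -1.11, -1.01 and -1.04 in the labelled null, and changed by 1.29.

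In each pair every transgenic array exceeded both wild-type arrays. The two-sided exact permutation p was 0.1 for each of these 3 changes, the smallest that 3 against 2 arrays allow, and 0.15 after adjustment over the 9 ratio comparisons. Between the transgenic groups the ratios changed by -0.12, 0.04 and 0.06 (exact permutation p = 0.3, 0.9 and 0.4), with overlapping arrays in all 3 pairs. Labelled null against wild type, which shares the wild-type arrays with the first comparison, gave 1.06, 1.11 and 1.35 (exact permutation p = 0.1 each).

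**Figure D2:**
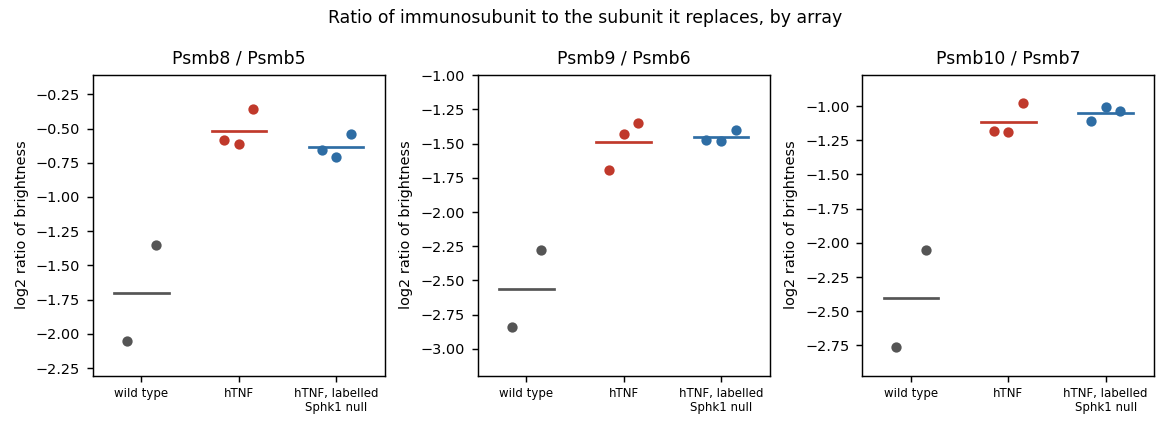
Log2 ratio of brightness of each immunosubunit to the subunit it replaces, on each array (points) with group means (bars); the height of an axis has no meaning, only its change. In all 3 panels the 6 transgenic arrays lie above the 2 wild-type arrays, and the transgenic groups overlap.

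None of the 7 tested alpha ring genes, which form the gate of the barrel, was called in hTNF against wild type by limma (1, Psma5, had an unadjusted p under 0.05); their differences ran from -0.22 for Psma5 to 0.02 for Psma1, with a median of -0.09. Of the 4 non-catalytic beta genes, Psmb3 fell by 0.45 ± 0.14 (limma adjusted p = 0.0328), a call kept with 3 of the 8 arrays left out in turn and lost without wild-type replicate 1 or 2, hTNF replicate 2 or 3, or labelled null replicate 3. The other 3, Psmb1, Psmb2 and Psmb4, had differences of -0.22, -0.22 and -0.28 and were not called. Over the 14 core genes without the immunosubunits, 3 (21.4%) fell and 0 rose, near the 19.6% of all genes called lower, with a median of -0.22.

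The 19S regulatory particle held most of the members that fell. Of its 17 tested subunits 11 fell (64.7%) and 0 rose, where 19.6% of all genes were called lower and 16.5% higher. The median difference was -0.47, against -0.02 over all genes. Of the 6 ATPases, the motors that unfold the substrate, 4 fell: Psmc1 by 0.54, Psmc2 by 0.43, Psmc3 by 0.49 and Psmc5 by 0.42. Psmc4 and Psmc6 had differences of -0.26 each and were not called. Of the 11 other subunits 7 fell. They were Psmd1 by 0.49 and Psmd2 by 0.47, the large scaffold subunits of the base, Psmd4 by 0.63, and the lid subunits Psmd6 by 0.50, Psmd7 by 0.63, Psmd11 by 0.48 and Psmd12 by 0.64. Psmd3, Psmd8, Psmd13 and Psmd14, the last being the deubiquitinase of the lid, had differences of -0.20, -0.04, 0.10 and -0.21 and were not called. A second probe set was not called for Psmd6 (-0.49, limma adjusted p = 0.0712) or Psmd7 (-0.045, limma adjusted p = 0.875). Of the 5 tested probe sets of Psmd11 3 fell, while those at -0.15 and -0.33 were not called.

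Psmd12 fell furthest within the particle. It read 11.88 and 11.87 in wild type, 11.34, 11.24 and 11.13 in hTNF, and 11.30, 10.91 and 11.01 in the labelled null. The wild-type arrays were nearly equal and every transgenic array lay below them (-0.64 ± 0.12 in hTNF, limma adjusted p = 0.00374). Psmd4, a receptor for ubiquitin chains, read 12.30 and 12.22 in wild type, 11.69, 11.59 and 11.61 in hTNF, and 11.66, 11.32 and 11.42 in the labelled null. It was lower in all transgenic arrays (-0.63 ± 0.11, limma adjusted p = 0.00196). A further probe set of Psmd4 also fell (-0.71), while another gave 0.09 and was not called (adjusted p = 0.650).

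**Figure D3:**
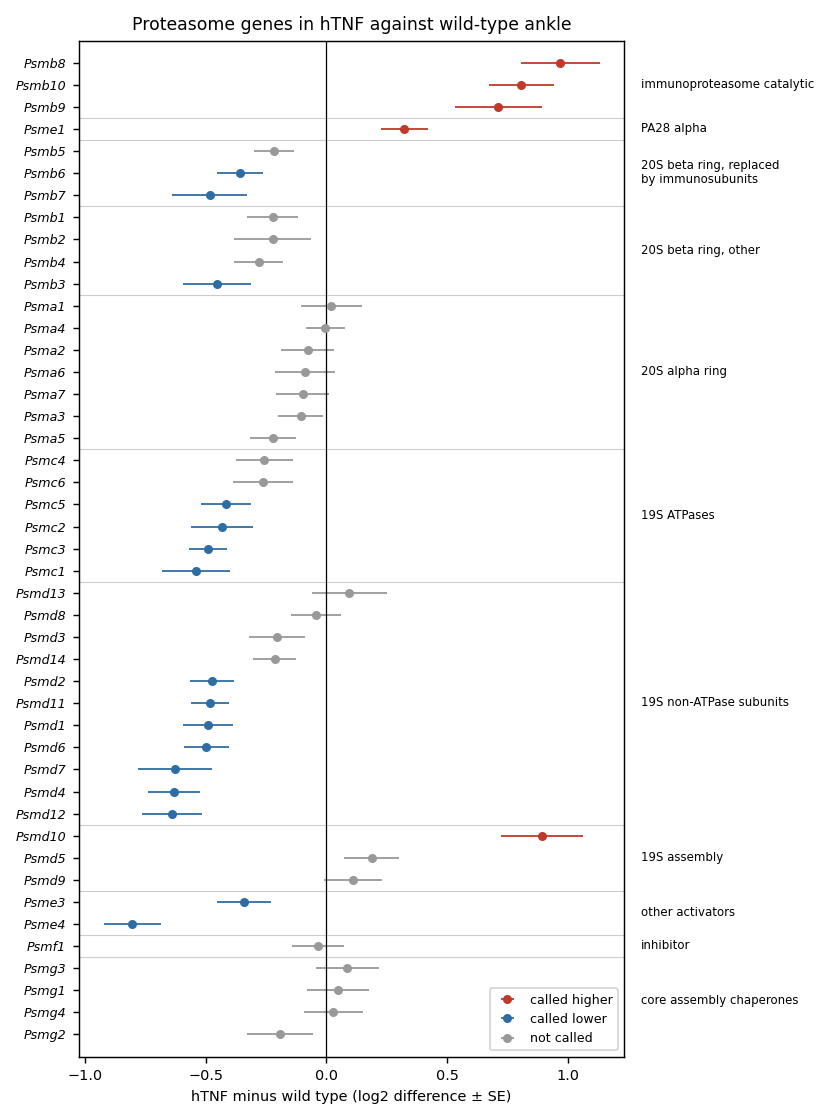
Log2 difference of hTNF from wild type for the 45 tested members, grouped by role (points with SE bars; colour marks the call). Psmb8, Psmb9, Psmb10, Psme1 and Psmd10 lie to the right as called rises, from 0.32 to 0.97, and 16 genes lie to the left as called falls, reaching -0.80 for Psme4.

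Among assembly factors and activators, single genes moved in opposite directions. Psmd10 (gankyrin), a chaperone that helps to build the 19S base, read 8.01 and 8.37 in wild type, 8.88, 9.22 and 9.15 in hTNF, and 9.39, 8.98 and 9.12 in the labelled null. No transgenic array reached the wild-type range. Psmd10 rose by 0.89 ± 0.17 (1.86-fold, limma adjusted p = 0.00331), the one called rise among the 41 members other than Psmb8, Psmb9, Psmb10 and Psme1. The other chaperones of the 19S base, Psmd5 and Psmd9, had differences of 0.19 and 0.11 and were not called.

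Psme4 (PA200), an activator that caps the core without ubiquitin, read 11.98 and 11.98 in wild type, 11.27, 11.20 and 11.06 in hTNF, and 11.27, 10.94 and 10.96 in the labelled null. This was the largest fall among the 45 tested members, and the groups did not overlap (-0.80 ± 0.12, limma adjusted p = 0.000959). All 3 tested probe sets of Psme4 fell, by 0.80, 0.68 and 0.70. Psme3 (PA28 gamma), a nuclear activator, fell by 0.34 ± 0.11 at its brightest probe set (limma adjusted p = 0.0433). The call was kept only without labelled null replicate 1 or 2.

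A second Psme3 probe set pointed the other way. It read 8.07 and 7.43 in wild type, 7.42, 8.30 and 8.25 in hTNF, and 8.86, 8.94 and 9.01 in the labelled null. The labelled null arrays stood above all others, the hTNF difference from wild type was 0.24 (limma adjusted p = 0.556), and the difference between the transgenic groups was 0.95 (unadjusted p = 0.00341, limma adjusted p = 0.540). Values of Psme3 therefore depend on the probe set read. Of the 21 members with more than 1 tested probe set, 15 gave the same call on all of them and 17 the same sign, and 0 gave opposite calls. Of the 3 tested probe sets of Psmd13 the dimmest rose by 0.51 (limma adjusted p = 0.0343), at a mean of 6.85, just under the table median of 6.87. The brightest gave 0.10 and the next 0.11, and neither was called.

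The inhibitor Psmf1 (PI31) did not pass the test, at -0.04 with a 95% interval from -0.28 to 0.21. The 4 core assembly chaperones, Psmg1 to Psmg4, gave differences from -0.19 to 0.09, and none was called by limma (0 at an unadjusted p under 0.05).

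Calls that held whichever array was left out were Psmb8, Psmb10 and Psmd10 among the rises, and Psmc3, Psmd2, Psmd4, Psmd6, Psmd11, Psmd12 and Psme4 among the falls. Leaving out wild-type replicate 1 ended the calls of all the other rises and falls. All 21 called members kept their sign there, and fewer probe sets were called over the whole table too. For Psmc1 and Psmc2 the call was also lost without wild-type replicate 2, hTNF replicate 2 or hTNF replicate 3, and for Psmc5 without hTNF replicate 3. Groups did not overlap for 6 members that were higher and 27 that were lower in hTNF; over all genes 28.7% were higher and 35.1% lower without overlap.

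Markers of cell types moved with the same comparison, in which 16.5% of all genes were called higher and 19.6% lower. Of 15 skeletal muscle markers 14 fell in hTNF, and their mean level was 14.09 to 14.11 in wild type, 12.79 to 13.14 in hTNF and 12.45 to 12.95 in the labelled null. The lowest value of any muscle marker on any array was 9.97, for Myh7. Of 11 tested macrophage and monocyte markers 10 rose, with mean levels of 9.52 to 9.66, 11.19 to 11.59 and 11.51 to 11.75. All 6 adipocyte markers fell, 6 of 9 synovial fibroblast markers and 7 of 9 proliferation markers rose, and 3 of 7 cartilage and bone markers fell. T and NK cell markers gave 1 call in 6, higher, and B and plasma cell, neutrophil and keratinocyte markers gave none. These lists were set with earlier results of the same arrays known.

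With the mean muscle marker level added to the model as a covariate, 0 of the 45 members were called by limma in either direction. Calls over all tested probe sets dropped from 7965 to 794. Of the 45 members 5 had an unadjusted limma p under 0.05, all of them higher. They are not the same 5 as the risers of the main model, since Psmb8, Psmb9 and Psme1 are not among them. The 5 risers of the main model kept their sign, Psmb8 at 0.90 ± 0.49, Psmb9 at 0.79 ± 0.54, Psmb10 at 1.02 ± 0.40, Psmd10 at 1.24 ± 0.49 and Psme1 at 0.20 ± 0.29. Of the 16 that fell 8 kept their sign; Psmb6 read 0.05, Psmb7 0.15, Psmd12 0.14, Psme4 -0.12 and Psmc3 -0.36. Muscle marker level and genotype cannot be told apart here, since no wild-type array overlaps the transgenic arrays in it. The part of macrophage and other marker levels in the results was not tested.

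Genes that work with the proteasome were read next. Of 13 tested partners (16 listed), such as core maturation factors, ubiquitin shuttles and deubiquitinases, 0 rose and 2 fell, with a median of -0.14, beside the 16.5% and 19.6% of all genes called higher and lower. Ecpas, a scaffold that binds 26S particles, fell by 0.66 ± 0.11 (limma adjusted p = 0.00155) and the shuttle Ubqln4 by 0.58 ± 0.12 (limma adjusted p = 0.00476). Of the ubiquitin and E1 genes 1 of 6 was tested: Uba6, a ubiquitin-activating enzyme, rose by 0.44 (limma adjusted p = 0.00918). Of 4 ubiquitin ligases known from muscle atrophy, Trim63 and Fbxo32 fell by 2.28 ± 0.26 and 1.31 ± 0.24 (limma adjusted p = 0.000247 and 0.00246), while Fbxo30 and Trim32 were not called.

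Regulators of proteasome genes moved in both directions, with 3 of 9 tested genes (11 listed) higher and 2 lower. The shares over all genes were 16.5% higher and 19.6% lower, and so small a list cannot be told from them. Nfe2l1, which drives constitutive subunit genes when proteasome activity drops, fell by 0.78 ± 0.13 (limma adjusted p = 0.00184). Ngly1, the glycanase that Nfe2l1 needs for activation, fell by 0.49 ± 0.12 (limma adjusted p = 0.0124). Nfe2l2, the oxidative stress factor, rose by 0.76 ± 0.12 (limma adjusted p = 0.00140), and its partner Maff rose by 0.67 ± 0.13 (limma adjusted p = 0.00405). Irf1, an activator of immunoproteasome genes, read 9.74 and 9.93 in wild type, 10.46, 10.69 and 10.82 in hTNF, and 10.80, 10.59 and 10.79 in the labelled null. All transgenic arrays exceeded wild type, and Irf1 rose by 0.82 ± 0.13 (limma adjusted p = 0.00141). Nlrc5, the class I transactivator, was not called at 0.45 (adjusted p = 0.136).

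Downstream of the immunoproteasome, 10 of 11 genes of the class I peptide pathway rose and 0 fell, with a median of 0.58. In the same comparison 16.5% of all genes were called higher and 19.6% lower. Tapbp, which bridges the peptide pump to class I molecules, rose by 1.08 ± 0.12 (limma adjusted p = 0.000197), the pump chains Tap2 and Tap1 by 0.78 ± 0.15 and 0.63 ± 0.18, and the heavy chain gene H2-D1 by 0.64 ± 0.10. Calr, a chaperone of the loading complex, was not called at 0.46 (adjusted p = 0.0717). Of 12 tested genes listed for the interferon gamma response 7 rose and 1 fell, with a median of 0.70. The receptor chains Ifngr1 and Ifngr2 are in this list. Ifngr2, Cxcl10, Ciita and Ifngr1 rose by 0.98, 0.94, 0.91 and 0.84, and Igtp fell by 0.59. Gbp3, Cxcl9, Irgm1 and Iigp1 were not called, at 0.36, 0.15, -0.125 and -0.48.

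No member was called between the transgenic groups. Over all genes 0.0162% were called higher and 0% lower in labelled null against hTNF, so the members' count stands at the background. Differences ran from -0.26 for Psmg4 to 0.16 for Psme3 at its brightest probe set, with a median of -0.08 against -0.02 over all genes. The 95% intervals of all 45 members lay between -0.53 and 0.42. At the brightest probe sets the groups were free of overlap for 0 members, where 5.1% of all genes were higher and 4.91% lower without overlap. With all arrays kept, 1 of the 45 members (Psmg4) had an unadjusted p under 0.05, where 6.27% of all genes did. That count rested on labelled null replicate 1: without it 13 of 45 members had an unadjusted p under 0.05, all of them lower, where 18.5% of all genes did. Without the 3 arrays high in Xist with raised Eif2s3y it was 9 of 45, again all lower, against 15.3%. The smallest limma adjusted p of a member was then 0.14 and 0.265, so 0 were called in either case.

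Psmg4, a chaperone of core assembly, read 9.06, 9.21 and 9.22 in hTNF and 9.06, 8.75 and 8.91 in the labelled null, with 9.16 and 9.11 in wild type. Replicates 1 of both transgenic groups coincided. The difference was -0.26 with an interval from -0.50 to -0.01 (limma unadjusted p = 0.0422, adjusted p = 0.651). Psmg2, also a core chaperone, read 9.56, 9.54 and 9.56 in hTNF and 9.54, 9.08 and 9.36 in the labelled null, with 9.76 and 9.73 in wild type. Its labelled null arrays spread more widely than the other groups, and the difference was -0.23 with an interval from -0.50 to 0.05 (limma unadjusted p = 0.0926, adjusted p = 0.685).

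For the immunoproteasome genes the 95% intervals between the transgenic groups all included 0. Psmb8 differed by -0.12 (-0.45 to 0.21), Psmb9 by -0.07 (-0.43 to 0.29), Psmb10 by -0.03 (-0.30 to 0.25) and Psme1 by 0.01 (-0.19 to 0.21). Psmb5 differed by 0.00 (-0.17 to 0.17), and Psmd10 by 0.08 (-0.26 to 0.42). Sphk1 lies on chromosome 11 together with 8 members, Psmb3, Psmb6, Psmc5, Psmd3, Psmd11, Psmd12, Psme3 and Psme4; at their brightest probe sets the differences between the transgenic groups ran from -0.23 to 0.16, and none was called. The second Psme3 probe set, at 0.95, lay outside that range.

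**Figure D4:**
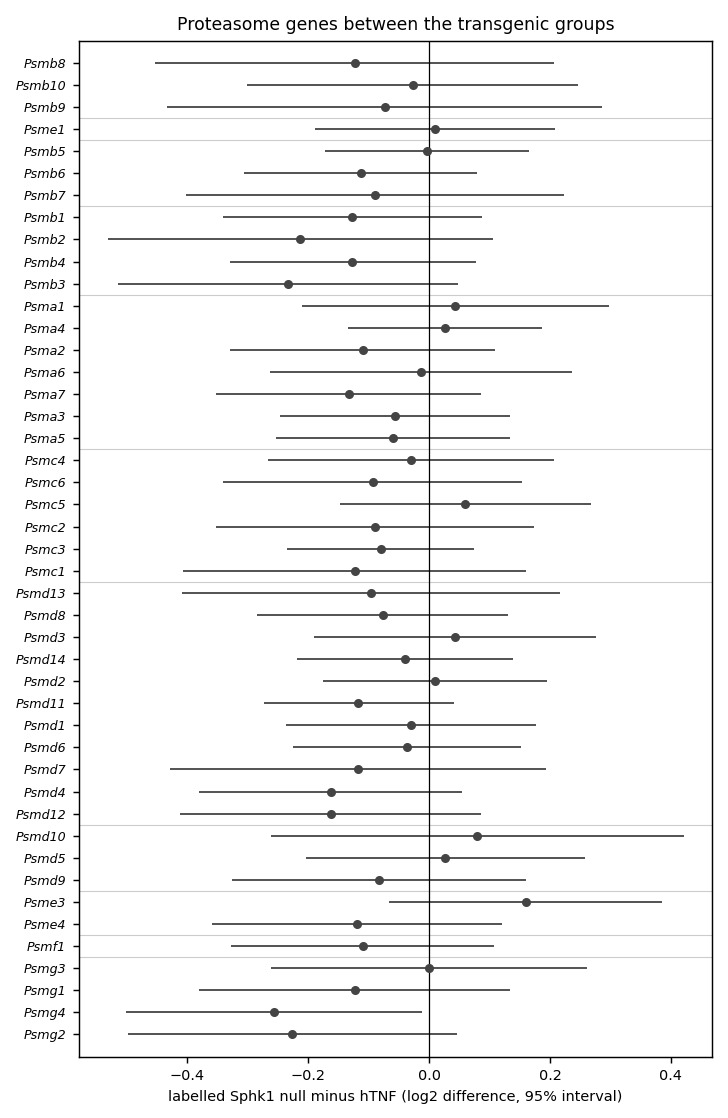
Log2 difference of the labelled Sphk1 null group from hTNF for the 45 tested members, with 95% intervals. Points run from -0.26 for Psmg4 to 0.16 for Psme3, and of the 45 intervals only that of Psmg4 leaves out 0.

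Labelled null against wild type shares its wild-type arrays with the first comparison. In it 5 members rose and 21 fell (46.7%), where 19.1% of all genes were called higher and 23.8% lower; the median member difference was -0.25. Without wild-type replicate 1 all 26 called members kept their sign, but fewer members were called, as were fewer probe sets over the whole table. The genes that rose were Psmb8 by 0.84, Psmb9 by 0.64, Psmb10 by 0.78, Psme1 by 0.33 and Psmd10 by 0.97. Psmb6 fell by 0.47 and Psmb7 by 0.57, whereas Psmb5 was not called at -0.22. Of the 17 tested 19S subunits 13 fell, with Psmd12 at -0.80 and Psmd4 at -0.79, and Psme4 fell by 0.92. Psma5 (-0.28) was the one alpha ring gene that fell, and Psmg2 (-0.42) the one core chaperone. Psme3 was not called at its brightest probe set, while its second probe set rose by 1.19 (limma adjusted p = 0.00703). Without wild-type replicate 1 the differences were 0.55 for Psmb8 (limma adjusted p = 0.0222), 0.32 for Psmb9 (0.178) and -0.36 for Psmb7 (0.163), so the calls of Psmb9 and Psmb7 were lost. The call of Psme1 was lost without either wild-type array, that of Psmg2 without any of 6 arrays, and that of Psma5 without any of 7, labelled null replicate 1 being the one it could spare.

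Single arrays showed where the lower values of the labelled null group lay. For the 41 members other than the immunoproteasome genes and Psme1, the mean level was 11.006 and 10.996 in wild type, 10.81, 10.76 and 10.75 in hTNF, and 10.86, 10.60 and 10.64 in the labelled null. Replicate 1 of the labelled null lay above all hTNF arrays, and its replicates 2 and 3 lay below them. Of the 41 genes 21 had their lowest value on labelled null replicate 2 and 13 on replicate 3, while wild-type replicates 1 and 2 held the highest value for 16 genes each. Skeletal muscle markers had their lowest mean on labelled null replicates 2 and 3 as well, at 12.45 and 12.74, against 12.95 on replicate 1. The hTNF arrays read 13.14, 13.03 and 12.79 for these markers. Labelled null replicate 1 lay below hTNF replicates 1 and 2 in muscle markers and above them in the member mean. The part of muscle content in these differences between arrays was not tested.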

How the data were processed

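Affymetrix Expression Console, RMA and MAS5 are named in the submitters' processing notes; which of the last 2 made the table is not given. The deposited values are log2 expression, by the authors, for 45101 probe sets on 8 arrays. After 64 control probe sets were left out, 24115 probe sets above the table median of 6.87 on at least 2 arrays were tested with limma 3.58.1 in R 4.3.3 (group means over all 8 arrays, 5 residual degrees of freedom, eBayes with trend, Benjamini-Hochberg adjustment). A gene is its brightest tested probe set with that gene alone in the platform annotation; 34945 probe sets had 1 gene, 932 several and 9160 none. Precision is set by the few arrays: genes had a median SE of 0.14 against wild type and 0.125 between the transgenic groups. Exact permutation tests over arrays served the ratios. Scripts were tested on simulated data.

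Members and lists were chosen with earlier results of these data known. Genes with values on every array were Psmb8, Psmb9, Psmb10, Psme1, Psmb5, Psmb6 and Psmb7; among the other members, the 3 largest called rises (Psmd10 was the only one) and the 3 largest called falls in hTNF; and the 2 smallest p-values between the transgenic groups. Irf1, the second Psme3 probe set and Sphk1, Xist and Eif2s3y were named after their values were seen. The same holds for Igtp, Gbp3, Cxcl9, Irgm1 and Iigp1. Apart from these, other lists name at most 4 genes, by size of called change, and the class I and regulator lists any. Cavin4, listed in error among the ligases, was left out. Alternatives covered filters, quantile normalization, an offset, eBayes without trend, probe set choice, the groups fitted, a replicate block, marker covariates and left-out arrays.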

Additional observations from a re-analysis of the deposited data

How the results depend on the processing

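With single arrays left out, hTNF against wild type gave 3 to 5 members higher and 7 to 19 lower, and labelled null against wild type 3 to 5 higher and 12 to 27 lower; the lowest counts came without wild-type replicate 1. Between the transgenic groups 0 members were called under every alternative tried. With skeletal muscle markers as a covariate 0 members were called in each direction against wild type, and Psmb6 and Psmb7 turned to 0.047 and 0.152 in hTNF and to 0.034 and 0.219 in labelled null; the cause was not tested. Between the transgenic groups small differences changed sign with that covariate: Psmb10 read 0.026, Psme1 -0.021, Psmb5 0.033 and Psmb7 0.066. With the 3 arrays high in Xist with raised Eif2s3y left out, Psme1 read -0.09 there and Psmb9 minus Psmb6 -0.05. With single arrays left out, the same comparison ran from -0.062 to 0.048 for Psme1, -0.11 to 0.048 for Psmb10, -0.043 to 0.025 for Psmb5, -0.198 to 0.007 for Psmb7 and -0.06 to 0.11 for Psmb9 minus Psmb6. The replicate block gave 4 members higher and 11 lower in hTNF against wild type; Psme1, Psmb6 and Psmb7 then had adjusted p = 0.0862, 0.0608 and 0.0618. Residuals of same-numbered arrays correlated from -0.17 to 0.27, and 3 of 6 transgenic arrays correlated best with their own number in the other group, so the numbers were not taken to pair mice. The other settings, without a covariate for muscle and with all arrays kept, gave 4 to 6 higher and 11 to 18 lower in hTNF against wild type. Signal over background limits Psma8 and Psmb11, which were too dim to test.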
